A study of Danio rerio with 24 samples.

Results

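MicroRNAs (miRNAs) were compared between TCDD-exposed and DMSO-exposed zebrafish embryos at 36 hours post-fertilization (hpf), 6 hours after the exposure began. TCDD, or 2,3,7,8-tetrachlorodibenzo-p-dioxin, is a persistent ligand of the aryl hydrocarbon receptor, and DMSO is the solvent it was dissolved in. The comparison rests on 12 of the 24 arrays of the study, chosen by their sample titles: 3 TCDD and 3 DMSO arrays at 36 hpf on a custom Agilent platform, and likewise 3 and 3 on Exiqon locked nucleic acid (LNA) arrays. All embryos were wild-type animals of the TL strain, exposed for 1 h starting at 30 hpf, and total RNA was taken from whole embryos. The remaining arrays hold TCDD and DMSO embryos at 60 hpf from the same exposure and enter here as a comparison in time. They were also fitted together with the 36 hpf arrays, so they share in the spread behind each standard error and p-value at 36 hpf. The Agilent scaling and the choice of miRNAs tested drew on them too. The study names 3 biological replicates per group. The TCDD dose, the embryos in a sample, and whether equal titles on the platforms mean equal RNA are not stated in the labels, so p-values measure the spread between the samples named as biological replicates. No messenger RNA was measured, so the exposure could not be checked on a target gene of the receptor.

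A miRNA is a short RNA that guides an Argonaute protein to partly matching messenger RNAs and lowers their translation and stability. It is cut from a hairpin whose arms pair with each other: the arm that is mostly loaded is the guide strand, and the other, written with an asterisk, is the passenger strand and is usually scarcer. The aryl hydrocarbon receptor is a transcription factor that enters the nucleus when it binds dioxin and switches on genes such as those of cytochrome P450 enzymes, and in fish embryos its activation by dioxin leads within days to heart, vessel and jaw defects. The embryos at 36 hpf had a beating heart and circulating blood and were still forming skin, muscle and brain.

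Probes are shown for 6 of the miRNAs described below, since a small array difference means little without the bases that were read. Each is an Agilent DNA probe, written 5′ to 3′, and is complementary to the 3′ part of the mature miRNA. For miR-181a* the capital marks the base by which the longer probe exceeds the shorter one, and for miR-203a and miR-203b the capital marks the single base that differs over the 15 bases both probes cover.
miR-181a*, longer probe: ggtacaatcaacggtcgA
miR-181a*, shorter probe: ggtacaatcaacggtcg
miR-17a*: ctagaagtgcctccac
miR-203a: caagtggtcctAaacatt
miR-203b: caagtggtcctGaac
miR-21: gccaacaccagtctg
miR-125b: tcacaagttagggtctc

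The array design places these probes on the danRer5 build, with no strand column. The longer miR-181a* probe maps to chr22:24052755-24052771, miR-17a* to chr8:45337834-45337848, miR-203a to chr17:43694633-43694649 and miR-203b to chr20:27047320-27047333. The probe of miR-21 has 2 places in that build, the first listed on chromosome 10, and that of miR-125b has 3, the first listed on chromosome 15. Counted from the 5′ end of the probe, miR-203a to miR-203b is the change A12G. Among the other miRNAs tested, miR-125c alone had a probe that differed from that of miR-125b by 1 base over 17. A probe read from 1 of these near-identical miRNAs may also have bound the other, which was not tested. Sequences of the Exiqon probes were not used here.

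Among the 36 hpf Agilent arrays 225 to 242 of 490 miRNA probes were detected and 134 miRNAs were tested, of which 123 were detected on all 6 arrays. Exiqon detected 246 to 255 of its 255 zebrafish probes at this age, and 221 miRNAs were tested there. On that platform 1934 of 1960 probes without a name were also above background, so detection there says little of whether a miRNA was present. Markers of tissues that a whole embryo holds, namely miR-124 and miR-9 of the nervous system, miR-1, miR-133a and miR-206 of muscle, miR-451 and miR-144 of red blood cells, miR-203a and miR-205 of skin and miR-183 of sensory organs, were detected on all 6 Agilent arrays. The liver miRNA miR-122 was at the detection floor on all 6. In whole embryos, fewer cells of a type and less of a miRNA per cell cannot be told apart. All values below are log2 values: on Agilent the spot signal scaled to each array's 75th percentile, on Exiqon the ratio of the sample to a common reference pool. A difference is TCDD minus DMSO with its standard error, and it passed when limma's adjusted p was under 0.05.

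Arrays of the same age were close to each other. Across miRNAs the TCDD arrays correlated with the DMSO arrays at 0.995 to 0.999 on Agilent and at 0.958 to 0.983 on Exiqon. DMSO replicate 1 stood apart most from its own group on Agilent. Its SD across miRNAs around the mean of the other 36 hpf DMSO arrays was 0.22. The other 36 hpf arrays had 0.07 to 0.17 around the mean of the rest of their group. The median within-group SD of a miRNA on Agilent was 0.04 in TCDD and 0.10 in DMSO embryos. Replicate 1 of each Agilent group was on one slide and replicates 2 and 3 were on another. On Exiqon the scan number in the image names was different for all 3 DMSO arrays at 36 hpf from that of every other array. Scan and treatment thus cannot be told apart at this age on that platform. Image analysis of TCDD replicate 3 at 36 hpf and TCDD replicates 1 and 3 at 60 hpf fell on another day. No DMSO array of either age was analysed on that day.

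Very few of the named miRNAs differed between TCDD and DMSO embryos at 36 hpf, and all differences were small. On each platform 1 miRNA passed, a passenger strand that was higher after TCDD. On Agilent it was miR-181a*, 1 of 134 tested (0.746%), and on Exiqon it was miR-17a*, 1 of 221 tested (0.452%). No miRNA was called lower on either platform. The largest absolute difference on Agilent was 0.31 and the largest on Exiqon was 0.34, which is 1.24-fold and 1.27-fold. The median absolute difference was 0.05 on Agilent and 0.04 on Exiqon, against a median standard error of 0.08 and 0.04. The 95% confidence interval stayed within a 1.5-fold change in either direction for 131 of 134 miRNAs on Agilent (97.8%) and for all 221 on Exiqon. Such an interval does not show that a scarce miRNA was unchanged. On Agilent 6 names were not detected on any 36 hpf array, and the floor fixed the difference of 4 at 0. On Exiqon the offset of 50 in the background correction draws ratios of dim probes towards 0. At an unadjusted p under 0.05 there were 6 miRNAs on Agilent (4.48%), of which 5 were higher in TCDD (3.73%) and 1 lower (0.746%). On Exiqon there were 19 (8.6%), 8 higher (3.62%) and 11 lower (4.98%). The TCDD and DMSO arrays did not overlap for 22 miRNAs on Agilent (16.4%), 11 in each direction (8.21% each), and for 57 on Exiqon (25.8%), 17 higher (7.69%) and 40 lower (18.1%). The Exiqon split moved with the scaling, with 3 higher and 17 lower at an unadjusted p under 0.05 under plain background subtraction, and 2 higher and 24 lower in the authors' deposited value table. By contrast it was 3 higher and 2 lower under median centring and 1 and 2 in the sample channel alone. Without TCDD replicate 1 it was 14 higher and 7 lower. Of all names, 48.5% were above 0 on Agilent, where 4 more were at the floor on all 6 arrays and have no sign, and 42.1% on Exiqon.

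miR-17a* is the passenger strand of miR-17a, from the miR-17-92 cluster, whose guide strands promote proliferation in vertebrate embryos and tumours. On Exiqon its log2 ratio was 0.21, 0.14 and 0.23 in TCDD embryos, against -0.06, -0.07 and -0.07 in DMSO embryos. The 2 groups were far apart relative to their spread. The difference was 0.27 ± 0.04 (SE, n = 3 arrays per group; adjusted p = 0.00188), a 1.20-fold higher level. Without the TCDD array whose image was analysed on another day it was 0.25. The call was lost under 2 of 17 alternatives, median centring of the ratios (0.18, adjusted p = 0.639) and the sample channel without the reference (0.30, adjusted p = 0.109). Among the 17, scaling of the intensities between arrays leaves the ratios unchanged and could not lose the call. On Agilent miR-17a* had -4.46, -4.51 and -4.37 in TCDD embryos, against -4.48, -4.69 and -4.75 in DMSO embryos. These values lie not far above the floor of -5.2, and DMSO replicate 1 overlapped the TCDD arrays. The Agilent difference was 0.19 ± 0.07 (adjusted p = 0.637), which did not pass. It was 0.03 on the slide with replicate 1 and 0.28 on the slide with replicates 2 and 3. Without DMSO replicate 1 it was 0.27 with an adjusted p of 0.0595.

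The guide strand miR-17a, of the same hairpin, showed no such difference. On Agilent it was 0.00 ± 0.05 with a 95% interval of -0.10 to 0.10, and on Exiqon 0.00 ± 0.03 with an interval of -0.06 to 0.07.

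miR-181a* is the passenger strand of miR-181a, a miRNA of neural, retinal and blood cells. On Agilent its scaled signal was -3.94, -3.92 and -3.90 in TCDD embryos, against -4.32, -4.23 and -4.13 in DMSO embryos. All 3 TCDD arrays were above all DMSO arrays, and the TCDD arrays were nearly equal. The difference was 0.31 ± 0.06 (SE, n = 3 arrays per group; adjusted p = 0.0244), a 1.24-fold higher level, with 0.38 within the slide of replicate 1 and 0.27 within the other slide. The replicate numbers may pair the Agilent arrays, and with the replicate as a block the adjusted p was 0.160 and no miRNA passed. The call held in 6 of 18 alternatives, with values from 0.16 to 0.35 and adjusted p from 0.00674 to 0.939. Among the 6 is the deposited value table, which holds the same Agilent intensities and could not differ. It was lost without DMSO replicate 1 (0.26, adjusted p = 0.0595), without DMSO replicate 2 (0.138), and without TCDD replicate 1 (0.110), 2 (0.137) or 3 (0.165). The shorter probe, which lacks only the capital base shown above, gave a difference of 0.09 ± 0.07 (limma's unadjusted p = 0.199) in the same direction. On Exiqon miR-181a* had -0.75, -0.63 and -0.65 in TCDD embryos, against -0.68, -0.79 and -0.62 in DMSO embryos. The groups overlapped there, with a difference of 0.02 ± 0.07 and a 95% interval of -0.12 to 0.16, which does not reach the Agilent value. Its guide strand miR-181a was at -0.02 ± 0.06 on Agilent and -0.03 ± 0.04 on Exiqon.

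**Figure D1:**
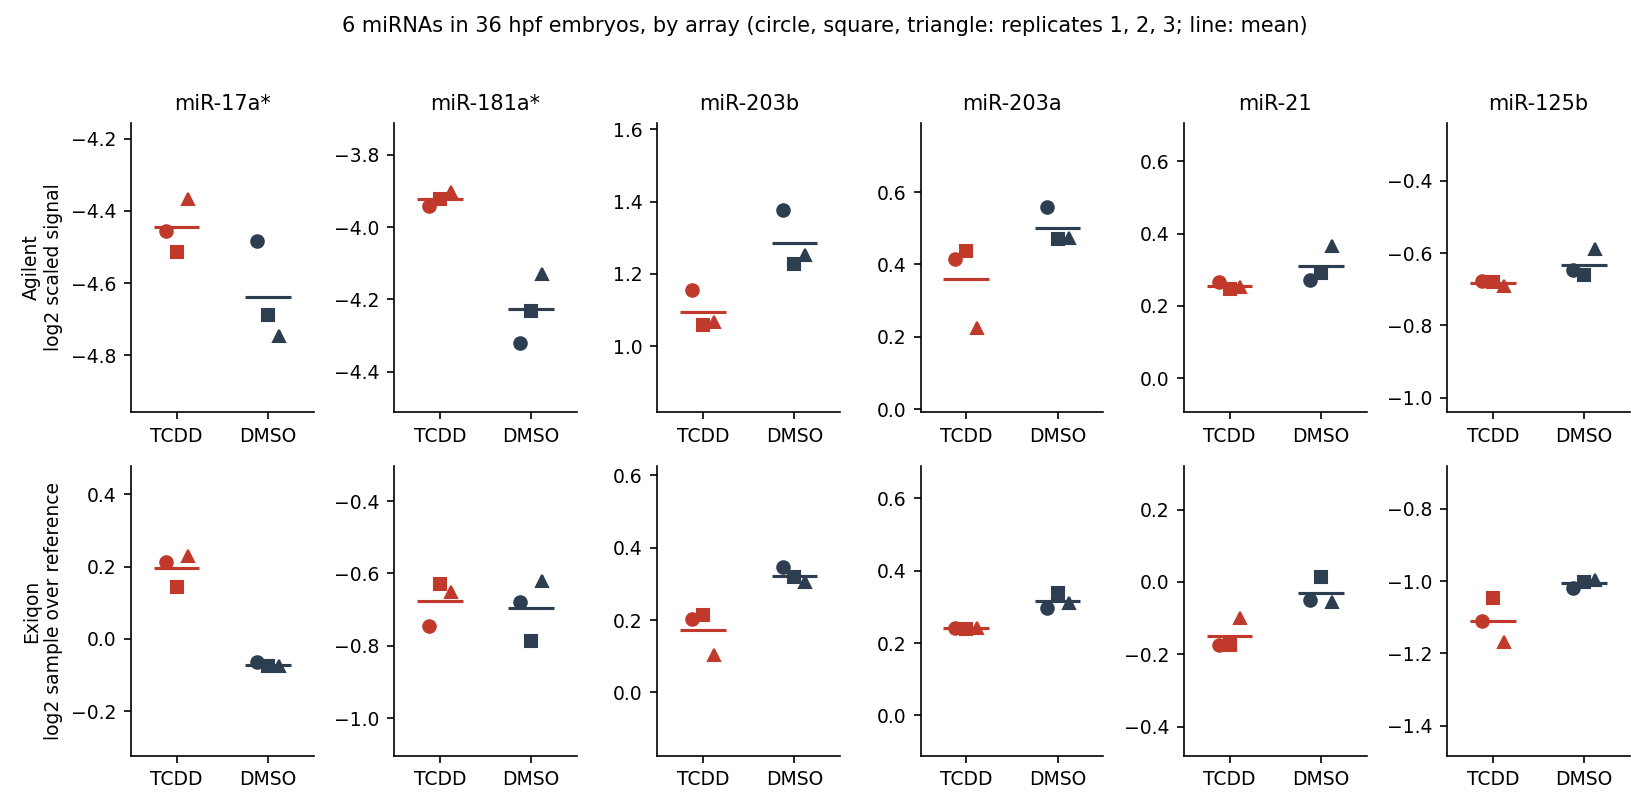
Log2 value of 6 miRNAs on each 36 hpf array, Agilent above and Exiqon below, with TCDD arrays in red at the left of each panel and DMSO arrays in dark blue at the right; every axis spans 0.8 log2 units and the line is the group mean. The groups of miR-17a* are wide apart on Exiqon and those of miR-181a* on Agilent, while the other 4 miRNAs lie slightly lower in TCDD on both.

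Passenger strands were a small share of the names tested. On Agilent 12 were tested, with a median difference of 0.08, against 0.00 for the other 122 names. At an unadjusted p under 0.05 there were 4 of the 12 (33.3%) and 2 of the other 122 (1.64%). The 4 were miR-181a*, miR-17a*, miR-30e* at 0.19 ± 0.08 and miR-10a* at 0.15 ± 0.06, and all were higher in TCDD. A second probe of miR-30e* gave 0.25 ± 0.07, and with both probes the groups were apart. The signals of miR-17a* and miR-10a* were close to the floor, and the arrays of both overlapped through DMSO replicate 1. On Exiqon 26 were tested, with a median of 0.00, and 2 of them (7.69%) had an unadjusted p under 0.05, beside 17 of the other 195 names (8.72%). On that platform miR-30e* was at 0.06 ± 0.03 and miR-10a* at -0.01 ± 0.06.

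A group of 4 miRNAs, all lower in TCDD, was the only one whose arrays were apart in the same direction on both platforms. That is 3.03% of the 132 names tested on both. Of these 132, 22 were apart on Agilent and 40 on Exiqon, in either direction. Whether 4 is more than unrelated platforms would give was not tested. The 4 were miR-203a, miR-203b, miR-21 and miR-125b, and none passed the test on either platform. The separation on Agilent belongs to the brightest probe of each. A second probe of miR-203b, 1 base longer, gave -0.06 ± 0.10, that of miR-21 gave -0.17 ± 0.10 and that of miR-125b gave -0.16 ± 0.11, and with all 3 the groups overlapped. The other 2 probes of miR-203a gave -0.30 ± 0.18, with overlap, and -0.25 ± 0.15, without. Another 2, miR-210 and miR-457b, were apart on both in opposite directions.

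miR-203a and miR-203b are miRNAs of the epidermis, where in mice miR-203 limits the proliferation of basal cells. On Agilent miR-203b had 1.16, 1.06 and 1.07 in TCDD embryos, against 1.38, 1.23 and 1.25 in DMSO embryos. The difference was -0.19 ± 0.06 (adjusted p = 0.540), similar on the slides at -0.22 and -0.18. On Exiqon miR-203b had 0.20, 0.21 and 0.10 in TCDD embryos, against 0.35, 0.32 and 0.30 in DMSO embryos. The difference was -0.15 ± 0.06 (adjusted p = 0.425), and in the sample channel without the reference it was 0.01. No TCDD array reached a DMSO array on either platform.

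miR-203a had 0.42, 0.44 and 0.23 on Agilent in TCDD embryos, against 0.56, 0.47 and 0.47 in DMSO embryos. The difference was -0.14 ± 0.07 (adjusted p = 0.894), and with outlier spots kept it was 0.01. On Exiqon it had 0.24, 0.24 and 0.24 in TCDD embryos, against 0.30, 0.34 and 0.31 in DMSO embryos, a difference of -0.07 ± 0.04 (adjusted p = 0.656). The other skin miRNA, miR-205, was at -0.04 ± 0.05 on Agilent and -0.01 ± 0.04 on Exiqon. At 60 hpf miR-203a differed by -0.16 on Agilent and -0.12 on Exiqon, and miR-203b by -0.05 and -0.16.

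miR-21, a miRNA raised in many tumours that in zebrafish takes part in heart valve formation, had 0.27, 0.25 and 0.25 on Agilent in TCDD embryos, against 0.27, 0.29 and 0.36 in DMSO embryos. The difference was -0.05 ± 0.05 (adjusted p = 0.941). On Exiqon it had -0.18, -0.17 and -0.10 in TCDD embryos, against -0.05, 0.01 and -0.05 in DMSO embryos, a difference of -0.12 ± 0.04 (adjusted p = 0.390). The gap between the groups was thus wider on Exiqon than on Agilent, where replicate 1 of both groups was almost equal.

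miR-125b, which in zebrafish embryos restrains p53, had -0.68, -0.68 and -0.69 on Agilent in TCDD embryos, against -0.65, -0.66 and -0.59 in DMSO embryos. The difference was -0.05 ± 0.04 (adjusted p = 0.941). On Exiqon it had -1.11, -1.05 and -1.17 in TCDD embryos, against -1.02, -1.001 and -0.996 in DMSO embryos, a difference of -0.10 ± 0.04 (adjusted p = 0.457). On both platforms the gap between the groups was narrower than the range of the wider group.

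Across the 132 shared names the differences had the same sign for 85 (64.4%). That count was 67 (50.8%) under Exiqon median centring, 72 (54.5%) in the Exiqon sample channel alone and 70 (53%) without Agilent DMSO replicate 3. Pearson's r was 0.36 and Spearman's rho was 0.39 across miRNAs, which are not independent replicates and share the arrays and their scaling. An unadjusted p under 0.05 was found on both platforms for miR-203b and miR-17a*. Names with such a p on 1 platform and the same sign on the other included miR-338 (0.18 ± 0.06 on Agilent, 0.07 ± 0.05 on Exiqon), miR-93 (-0.09 ± 0.09 and -0.09 ± 0.03) and miR-20b (-0.06 ± 0.12 and -0.09 ± 0.04). Others of the same sign were near 0 on Agilent, such as miR-184 (0.003, and 0.13 on Exiqon) and miR-9* (-0.01 and -0.08). The sign was opposite on the other platform for miR-216b, miR-218b, miR-7a and miR-10a*. miR-430b, of the family that clears maternal messenger RNAs in the early embryo, was at 0.10 ± 0.08 on Agilent and 0.14 ± 0.06 on Exiqon, where median centring turned it to -0.05.

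**Figure D2:**
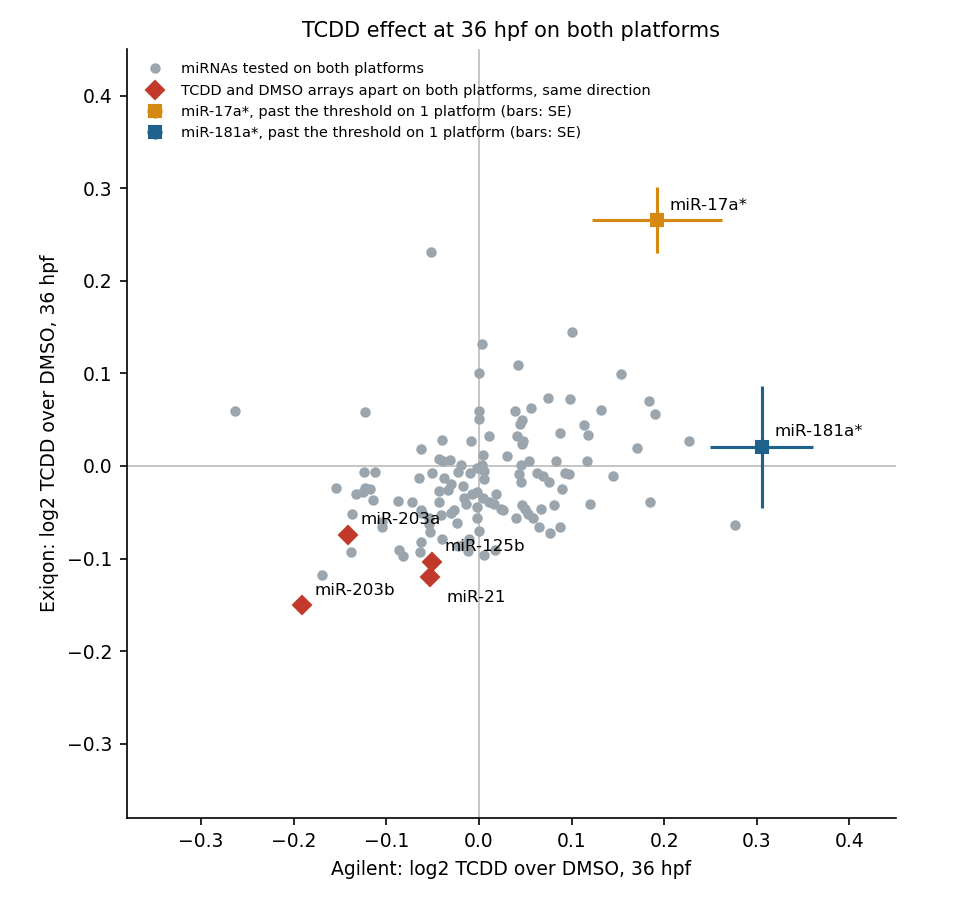
Log2 difference of TCDD over DMSO at 36 hpf for the 132 miRNAs tested on both platforms, Agilent on the horizontal axis and Exiqon on the vertical axis. Most points lie within 0.2 of 0 on both axes, the 4 miRNAs apart on both platforms (red diamonds) lie at the lower left, and miR-17a* lies at 0.19 and 0.27.

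Other miRNAs stood out on a single platform without passing. On Exiqon the largest difference was that of miR-146b, which with miR-146a dampens immune signalling in mammals. miR-146b had 0.24, 0.24 and 0.11 in TCDD embryos, against -0.31, 0.05 and -0.19 in DMSO embryos, a difference of 0.34 ± 0.09 (adjusted p = 0.191). Its DMSO arrays were widely spread, and the probe was dim, above background on 2 of 3 DMSO arrays. Without DMSO replicate 2 the difference was 0.44 with an adjusted p of 0.0142, and in the authors' deposited value table it was -0.04.

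miR-146a went the other way, with -0.15, -0.18 and -0.12 in TCDD embryos, against 0.06, 0.11 and 0.03 in DMSO embryos. The difference was -0.22 ± 0.08 (adjusted p = 0.425), and the groups were well apart. miR-723 differed by 0.25 ± 0.09 and miR-216b, a pancreas miRNA, by 0.23 ± 0.06, with miR-216b at -0.05 on Agilent. When only the 36 hpf arrays were fitted, miR-17a*, miR-146a and miR-723 passed on Exiqon, the last 2 with an adjusted p of 0.0131. miR-146a, miR-146b and miR-723 were not tested on Agilent. miR-218b at -0.10, miR-92b at -0.09 and miR-7a at -0.09 completed the 10 smallest p on Exiqon. These are values of the brightest probe. Other Exiqon probes of miR-7a gave 0.05 ± 0.05 and 0.02 ± 0.05, so its sign depends on the probe. Another probe of miR-92b gave -0.02 ± 0.04.

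On Agilent miR-338 had -2.37, -2.43 and -2.51 in TCDD embryos, against -2.71, -2.62 and -2.52 in DMSO embryos. The groups were apart, but by little for replicate 3 of each, and the difference of 0.18 ± 0.06 had an adjusted p of 0.540. A second probe of miR-338, 1 base shorter, gave 0.01 ± 0.06 with overlapping groups. The neuronal miR-124 differed by -0.13 ± 0.06, miR-24 by 0.17 ± 0.08, miR-199* by -0.15 ± 0.08 and miR-196a, from the Hox clusters, by 0.12 ± 0.06, and all had an adjusted p of 0.894. Second probes gave smaller values for miR-124 (-0.04 ± 0.07) and miR-24 (0.08 ± 0.14) and a larger one for miR-196a (0.17 ± 0.06). The other probes of miR-199* gave -0.0003 ± 0.11 and -0.02 ± 0.12.

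The 5 miRNAs with the brightest Agilent probes in 36 hpf embryos were miR-430b, miR-19b, miR-20a, miR-206 and miR-430a. Their differences were 0.10 ± 0.08, 0.10 ± 0.10, 0.05 ± 0.05, 0.23 ± 0.14 and 0.04 ± 0.07, and none passed. The probe of miR-430b was saturated on 3 TCDD and 2 DMSO arrays and that of miR-19b on 2 and 2, so their order between groups is not fixed. miR-206, a skeletal muscle miRNA, had no unflagged spot on TCDD replicate 2 and rests on 2 TCDD arrays, with 3.02 and 2.87 there, against 2.44, 2.79 and 2.93 in DMSO embryos. The low value was DMSO replicate 1, and within the second slide the difference was 0.01.

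Lists of miRNAs by tissue or family are given as a description. They held 145 names in 23 lists, of which 111 were tested on Agilent and 140 on Exiqon. None of these passed, but the lists hold neither miR-17a* nor miR-181a*, the only named miRNAs that did. The absence of a call in the lists was thus fixed by their choice and adds no support. Signs of single members are often not settled: 74 of the 134 Agilent names (55.2%) and 142 of the 221 Exiqon names (64.3%) changed sign under at least 1 alternative. The list medians ran from -0.14 (skin) to 0.18 (miR-101 and miR-338) on Agilent and from -0.09 (miR-99, miR-100 and miR-125) to 0.07 (miR-430) on Exiqon. Over all tested miRNAs the median was 0.00 on Agilent and -0.01 on Exiqon.

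In the skin list all 3 members were below 0 on both platforms, with medians of -0.14 and -0.07. On each platform 2 of 3 were apart and lower, beside 8.21% of all names on Agilent and 18.1% on Exiqon. These 2 are miR-203a and miR-203b, singled out above for this same separation, so the count is no further support. Their Agilent probes differ by 1 base and may each have bound both miRNAs, which was not tested. Of the neuronal list 8 of 10 tested members were below 0 on Agilent (median -0.05) and 12 of 14 on Exiqon (median -0.03). miR-219, of myelinating glia, was the lowest of these on both at -0.17 and -0.12. The Agilent value of miR-219 rests on DMSO replicate 1 (-0.05 on the other slide) and the Exiqon value on TCDD replicate 3 (-0.01 without it). Of all Exiqon names 42.1% were above 0, and under median centring of the ratios, which moved the median of all names to -0.09, 20.8% were. Counts of sign on Exiqon thus move with the scaling.

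The members of the miR-23/24/27 clusters, which act in blood vessels and the heart, were above 0 for 4 of 4 on Agilent (median 0.12) and for 7 of 8 on Exiqon (median 0.05). On Agilent miR-24 was at 0.17, miR-23a at 0.13, miR-23b at 0.11 and miR-27c at 0.06. On Exiqon miR-27a was lowest at -0.02 and miR-27b highest at 0.07, and under median centring 6 of the 7 members above 0 turned below it, all but miR-27c. At 60 hpf the medians of this list were 0.56 and 0.24.

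Of the red blood cell miRNAs, miR-451 and miR-144 were at 0.09 and 0.05 on Agilent and at -0.03 and -0.05 on Exiqon, so the platforms differed in sign. The heart and skeletal muscle list, which holds miR-1, the miR-133 genes, miR-206 and miR-499, had a median of -0.04 on both platforms. All of its tested members had the same sign on both, beside 64.4% of all names tested on both. They were above 0 for miR-1 (0.04 and 0.03) and miR-206. They were below 0 for miR-133a (-0.07 and -0.04), miR-133b, miR-133c (-0.10 on Agilent and -0.06 on Exiqon) and miR-499 (-0.05 and -0.06). The Agilent signs of miR-1 and miR-133c turned without DMSO replicate 1, and that of miR-133b without DMSO replicate 3. On Exiqon the sign of miR-1 turned under median centring. Of the miRNAs of vessels, miR-126, which guards endothelial integrity, was at 0.00 on both platforms, and miR-222 was at -0.04 and -0.03. The largest of these on Exiqon was miR-126* at 0.08, followed by miR-145 at 0.08.

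Among the epithelial miR-200 family, miR-200a was at -0.11 on Agilent and -0.01 on Exiqon, miR-141 at -0.09 and -0.04, and miR-429 at 0.07 and -0.05. The sensory organ miRNAs miR-96, miR-182 and miR-183 were at 0.02, 0.02 and -0.06 on Agilent and at -0.04, -0.05 and -0.05 on Exiqon. Of the liver, gut and pancreas list only miR-216b on Exiqon, at 0.23, was beyond 0.06 in either direction. In the lens and retina list miR-184 was at 0.13 on Exiqon, turned to -0.01 by median centring, and at 0.00 on Agilent. In cartilage and mesenchyme, miR-140, a cartilage miRNA, was at 0.09 and 0.04, and miR-214 at -0.04 and -0.04.

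The miR-430 family ran from -0.04 for miR-430c to 0.10 for miR-430b on Agilent and from -0.05 for miR-430i to 0.14 for miR-430b on Exiqon. Guide strands of the miR-17-92 cluster and its paralogues had medians of -0.02 and -0.01, with miR-19c lowest on Agilent at -0.12 and miR-20b lowest on Exiqon at -0.09. The let-7 family, timers of development, ran from -0.02 (let-7c) to 0.28 (let-7b) on Agilent, where let-7b was detected on 2 of 3 arrays in each group and let-7d was at the floor, and from -0.09 (let-7e) to 0.10 (let-7f) on Exiqon. The miRNAs miR-99, miR-100, miR-125a, miR-125b and miR-125c, whose genes lie beside let-7 genes, were all below 0 on Exiqon, between -0.10 and -0.07. Of these, 3 of 5 were apart and lower, beside 18.1% of all Exiqon names. On Agilent miR-99 was at -0.05, miR-100 at -0.01 and miR-125c at -0.02, and miR-125a was at the floor.

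Members of the Hox clusters ran from -0.06 (miR-10c) to 0.12 (miR-196a) on Agilent and from -0.08 (miR-10c) to 0.03 (miR-10a) on Exiqon. Of the stress-associated list, miR-34, a target of p53 in mammals, was at 0.06 and -0.06, and miR-210, a hypoxia miRNA, at 0.05 and -0.05. By their brightest probes both thus pointed in opposite directions on the platforms. Other Exiqon probes of miR-34 gave 0.04 ± 0.05 and -0.004 ± 0.05. The Agilent sign of miR-34 turned without DMSO replicate 1, and that of miR-210 turned with outlier spots kept. Among the leukocyte miRNAs, miR-223 of myeloid cells was at -0.01 and -0.04 and miR-142a-3p at 0.01 and 0.03. The remaining lists, which hold miR-15 and miR-16 with miR-103 and miR-107, the miR-130 and miR-301 families, and guide strands of miR-30 and miR-181, had medians between -0.04 and 0.04 on Agilent and between -0.05 and 0.01 on Exiqon. Their largest members were miR-301b and miR-16a at -0.12 on Agilent and miR-30b at -0.07 on Exiqon.

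**Figure D3:**
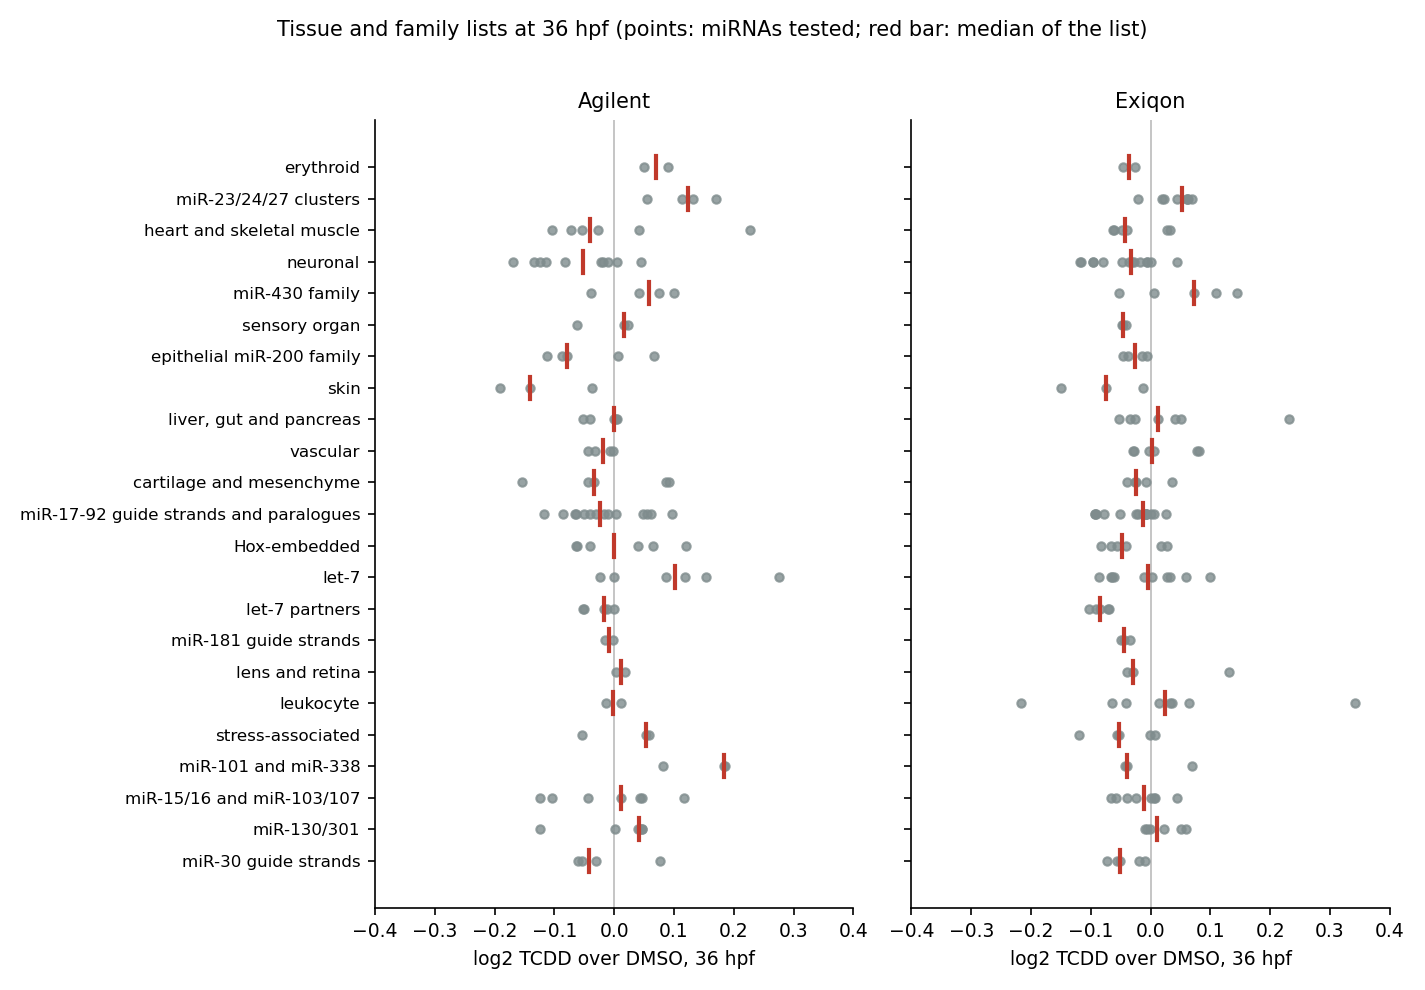
Log2 difference of TCDD over DMSO at 36 hpf for each tested miRNA of 23 tissue and family lists, Agilent at the left and Exiqon at the right; red bars are list medians. Medians stay between -0.14 and 0.18. No member passed the test on either platform, and the lists hold neither miR-17a* nor miR-181a*.

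The same exposure was also followed to 60 hpf, where more miRNAs passed: 4 of 134 on Agilent (2.99%), 3 higher (2.24%) and 1 lower (0.746%), and 14 of 221 on Exiqon (6.33%), 11 higher (4.98%) and 3 lower (1.36%). The SD of the differences across miRNAs was 0.09 at 36 hpf and 0.14 at 60 hpf on Agilent, and 0.07 and 0.10 on Exiqon. The change in the TCDD effect itself is the difference at 36 hpf minus that at 60 hpf. By limma it had an unadjusted p under 0.05 for 7.46% of names on Agilent and 14.5% on Exiqon. It passed for 2 miRNAs on Agilent (1.49%) and 6 on Exiqon (2.71%). On Agilent these were miR-181a* and miR-451, a red blood cell miRNA needed for erythroid maturation in zebrafish. miR-451 was at 0.09 ± 0.05 at 36 hpf and at -0.24 ± 0.05 at 60 hpf on Agilent, and at -0.03 and -0.26 on Exiqon. miR-181a* was at 0.31 and -0.09 on Agilent. On Exiqon it was at 0.02 and 0.11, so its change pointed the other way there. On Exiqon miR-23a, miR-23b, miR-24, miR-27e and miR-101a were close to 0 at 36 hpf and between 0.17 and 0.36 at 60 hpf, and miR-146b had opposite signs. With the replicate as a block on Agilent no change passed. Leaving out 1 array at 36 hpf gave 0 to 2 changes on Agilent and 0 to 3 on Exiqon, with none left on Agilent without DMSO replicate 2 or without TCDD replicate 1, 2 or 3. On Exiqon 0 were left without DMSO replicate 3, 1 without DMSO replicate 1 or TCDD replicate 1, and 3 without DMSO replicate 2, TCDD replicate 2 or TCDD replicate 3.

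miR-17a* was higher by the same amount at both ages on Exiqon, with 0.27 ± 0.04 at 36 hpf and 0.27 ± 0.04 at 60 hpf (adjusted p = 3.83e-04 at 60 hpf). At 60 hpf the scan number was the same for both treatments, but images of TCDD replicates 1 and 3 were analysed on another day. TCDD replicate 2 shared its day with the DMSO arrays, so day and treatment are only partly separate at that age. On Agilent its 60 hpf values averaged -5.14 ± 0.06 in TCDD embryos and -5.14 ± 0.04 in DMSO embryos (SD, n = 3 each), next to the floor of -5.2.

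**Figure D4:**
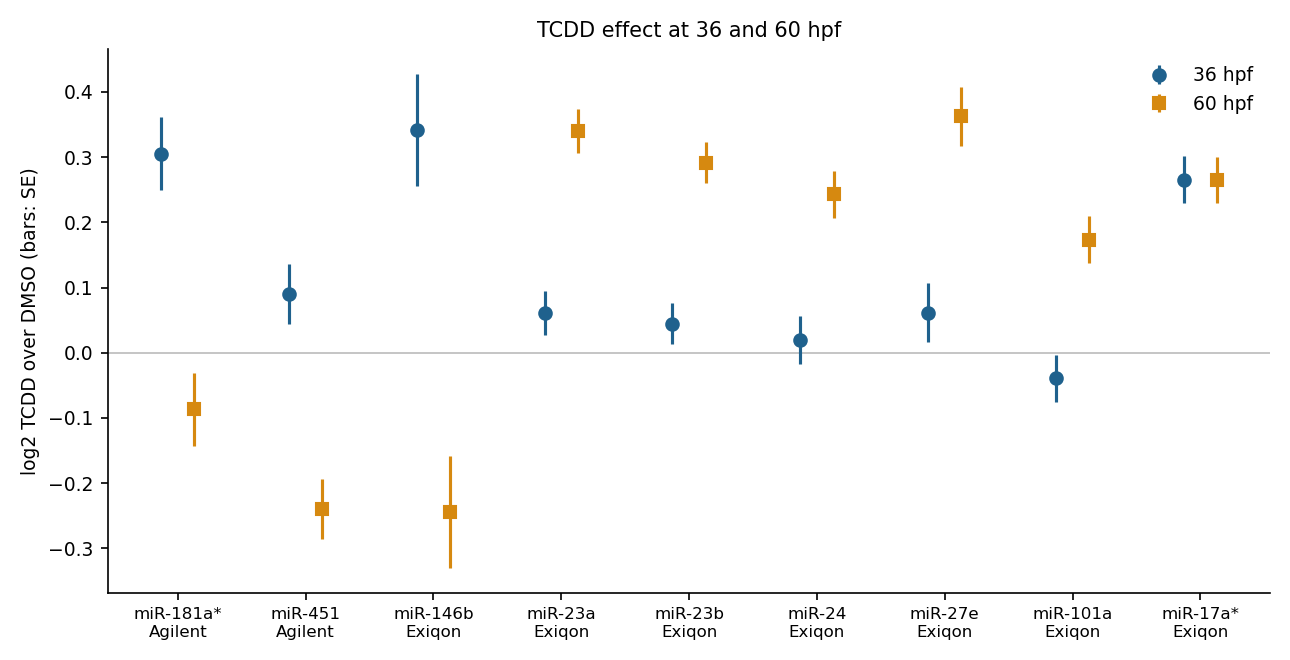
Log2 difference of TCDD over DMSO with its standard error at 36 hpf (blue circles) and 60 hpf (orange squares) for the 8 miRNAs whose effect changed between the ages and for miR-17a*. The miR-23/24/27 members and miR-101a lie near 0 at 36 hpf and higher at 60 hpf, and miR-17a* lies at 0.27 at both ages.

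The widest separation of TCDD and DMSO embryos at 36 hpf was on an Exiqon probe that carries no miRNA name in the files. Of 1960 probes without a name 1828 were tested, and 1 passed (0.0547%), the probe with the identifier 28351. Its log2 ratio was 0.87, 0.93 and 1.10 in TCDD embryos, against -1.30, -1.33 and -1.25 in DMSO embryos. The difference was 2.26 ± 0.08 (SE, n = 3 arrays per group; adjusted p = 8.07e-09), a 4.79-fold higher level. In the main fit all other probes without a name differed by at most 0.498. Under plain background subtraction 2 of 351 tested passed, and the next largest difference was 1.2. In the sample channel alone 2 of 1828 passed, and the next largest difference was 0.536.

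The separation is visible in the scanner values before any scaling. In the sample channel the mean over the 4 spots of the probe was 465, 425 and 474 in TCDD embryos, against 137, 155 and 137 in DMSO embryos, with local backgrounds of 57 to 66. In the reference channel, which holds the same pool on every array, it was 359, 332 and 409 on the TCDD arrays, against 397, 456 and 380 on the DMSO arrays. The reference spots thus overlapped between the groups, while every TCDD sample spot mean was well above every DMSO one. At 60 hpf the scan numbers were equal, but images of TCDD replicates 1 and 3 were analysed on another day than DMSO images. There the log2 ratio was 0.07, -0.05 and -0.11 in TCDD embryos, against -1.47, -1.30 and -1.21 in DMSO embryos. That difference was 1.29 ± 0.08 (adjusted p = 4.22e-06), smaller than at 36 hpf by 0.96 ± 0.11 (adjusted p = 0.00392). Under median centring that change between ages was 0.69 and did not pass (adjusted p = 0.199). The call at 36 hpf held under all 14 alternatives run for it, with values from 1.98 to 3.13. Among the 14, scaling of the intensities between arrays leaves the ratios unchanged and could not alter the call. The RNA that this probe binds is not named in the sources used here.

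**Figure D5:**
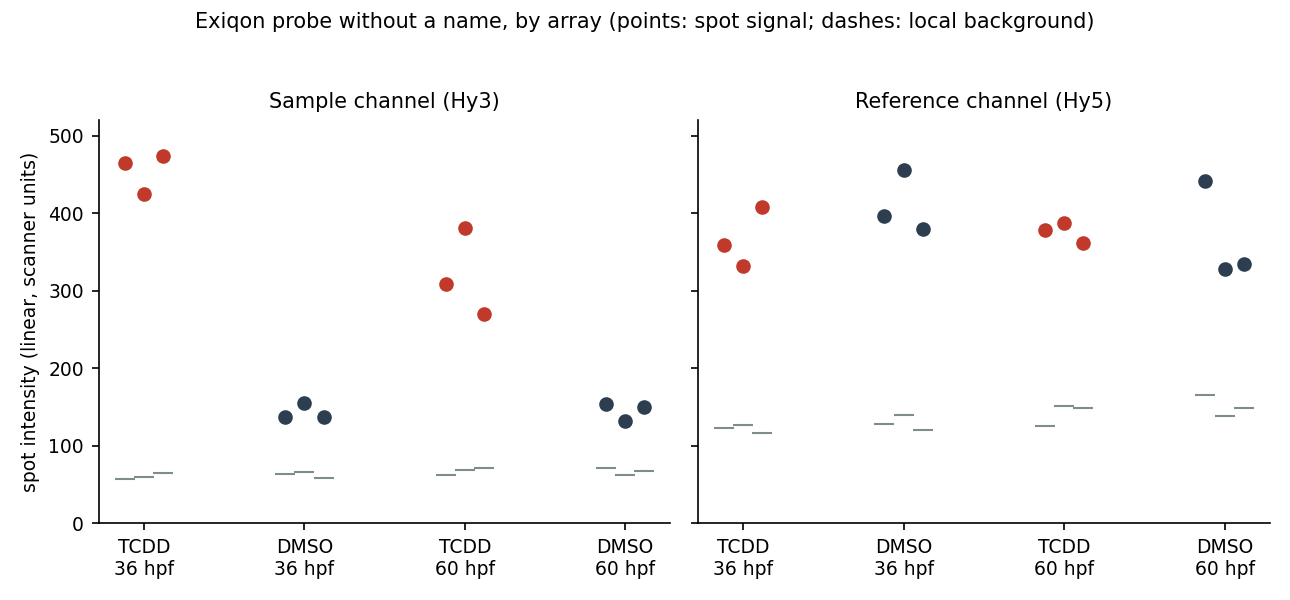
Mean spot intensity of the Exiqon probe without a name on each array, on a linear axis that starts at 0, in the sample channel at the left and the reference channel at the right; dashes are the local background. In the sample channel the 3 TCDD arrays at 36 hpf lie between 425 and 474 and the 3 DMSO arrays between 137 and 155, while the reference channel overlaps.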

How the data were processed

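Total RNA of whole zebrafish embryos was hybridised to 2 platforms, with 3 biological replicates in each of 4 groups on each. The Agilent intensities were deposited as 1-colour scanner output of Agilent Feature Extraction 9.5, background-subtracted and not normalized between arrays, per the file headers. The Exiqon intensities are 2-colour spot values of the sample (Hy3) and a reference pool (Hy5), per the labels. The authors' deposited value tables hold the same Agilent intensities and, for Exiqon, log2 ratios of a normalization that the labels and headers do not state; they served as an alternative.

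On Agilent, spots called outliers were left out and each array was scaled to its 75th percentile over 186 probes detected on all 12 arrays. Values under 0.0272 were set to that floor, and the brightest probe stood for a miRNA, with the requirement that it was detected on all 3 arrays of a group. On Exiqon, flagged spots were left out, the background was corrected with normexp (offset 50), and ratios were normalized by loess within each array. A probe needed at least 2 arrays per group. limma 3.58.1 in R 4.3.3 was fitted to 4 group means per platform, with Benjamini-Hochberg adjustment at 0.05 over all miRNAs tested; every adjusted p is limma's. An exact permutation test of 3 against 3 cannot go below p = 0.1. The code was tested on simulated data. The number of arrays limits the precision.

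Same-numbered Agilent arrays deviated together weakly (r = 0.23, 0.24 and 0.18). Of the unlike-numbered arrays that shared a slide, TCDD replicate 3 and DMSO replicate 2 did so as much (r = 0.25). TCDD replicate 2 and DMSO replicate 3 did not (r = 0.0009). Whether the numbers pair the arrays is therefore not settled, and the labels name no shared day or clutch. The miRNAs described are those with an adjusted p under 0.05, the 10 smallest p and the 5 brightest, those apart on both platforms, those whose effect differed between ages, and list members. The members and lists were chosen with earlier results of these data known. The spot flags, the percentile over detected probes, the detection rules, the floor and the minimum of arrays were set after the design was fixed and after some values, among them those of miR-181a*, had been seen. The probe without a name was chosen after its values were seen. Alternatives were other background corrections, scalings, filters, blocks and left-out arrays. On each platform an alternative could not differ from the main result. These were the Agilent deposited table and, on Exiqon, scaling of intensities between arrays, which leaves ratios unchanged.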

Additional observations from a re-analysis of the deposited data

Results flagged for a closer look

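The TCDD effect differed between 36 and 60 hpf for 8 miRNAs by limma's test of the difference. On Agilent the effect of miR-181a* was 0.31 at 36 hpf and -0.09 at 60 hpf, a difference of 0.39 ± 0.08 (adjusted p = 0.0267). On Exiqon its effect was 0.02 and 0.11, so the change pointed the other way. The Agilent call for this change held in 6 of 17 alternatives. The Agilent effect of miR-451 was 0.09 and -0.24, a difference of 0.33 ± 0.07 (adjusted p = 0.0267), and the call held in 8 of 17 alternatives. On Exiqon the effect of miR-451 was -0.03 and -0.26, a change in the same direction. On Exiqon the effect of miR-146b was 0.34 and -0.24, a difference of 0.59 ± 0.12 (adjusted p = 0.0300). The remaining 5 had larger effects at 60 hpf on Exiqon. The difference, 36 minus 60 hpf, was -0.28 for miR-23a (adjusted p = 0.0147), -0.25 for miR-23b (adjusted p = 0.0147), -0.30 for miR-27e (adjusted p = 0.0300), -0.22 for miR-24 (adjusted p = 0.0436) and -0.21 for miR-101a (adjusted p = 0.0463).

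Among Exiqon probes that carry no miRNA name, 1 of 1828 passed at 36 hpf, with a log2 difference of 2.26 ± 0.08 between TCDD and DMSO embryos. It stands out because it lies outside the named miRNAs and exceeds every difference among them.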

How the results depend on the processing

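At 36 hpf on Agilent 1 miRNA passed. Under normexp background correction, the 75th percentile over all probes, quantile normalization, the mean over probes, outlier spots kept, the replicate block and the fit of only the 36 hpf arrays, 0 passed by limma, with 5 to 14 at an unadjusted p under 0.05. Leaving out 1 array gave 0 to 1. On Exiqon 1 passed, against 0 under median centring and 0 in the Hy3 channel alone (5 and 3 at an unadjusted p under 0.05), 3 with only the 36 hpf arrays, and 1 to 2 leaving out 1 array. For the change of effect between ages, 2 passed on Agilent, against 1 under normexp, 0 under the percentile over all probes, the mean over probes, outlier spots kept, the slide block or the replicate block, and 0 to 2 leaving out 1 array. On Exiqon 6 passed, against 0 under median centring, the Hy3 channel alone or the replicate block, 2 with flagged spots kept, 2 in the deposited table, and 0 to 3 leaving out 1 array. Same-numbered Exiqon arrays did not deviate together (r = 0.03, -0.15 and 0.08), and with the replicate block miR-17a* still passed there. Among the miRNAs followed one by one, signs turned for miR-203a on Agilent with outlier spots kept (0.0111), and on Exiqon for miR-146b in the deposited table (-0.0376) and miR-203b in the Hy3 channel alone (0.00986). The causes were not tested. Over all alternatives of these miRNAs, 233 of 266 values on Agilent and 229 of 290 on Exiqon kept their direction and side of the threshold. Both counts include an alternative that could not differ, the deposited table on Agilent and the scaling of intensities between arrays on Exiqon. Most of the results counted had not passed, so keeping their side was nearly fixed in advance and adds no support. Among the Agilent results that passed, miR-181a* kept it in 6 of 18 alternatives. Its change between ages kept it in 6 of 17, and that of miR-451 in 8 of 17. On Exiqon miR-17a* kept it in 15 of 17. The changes between ages there ran from 4 of 16 (miR-24) to 12 of 16 (miR-23a). Over all names tested, 74 of 134 on Agilent and 142 of 221 on Exiqon turned sign under at least 1 alternative, and names of the same sign on both platforms numbered 85, with 67 under Exiqon median centring. The percentile over spots and the omission of empty Exiqon spots were chosen after seeing the data, as were the alternatives for the probe without a name. Low Agilent signals near the floor limit what can be said of scarce miRNAs.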
